A study of Bos taurus with 10 samples.

Results

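RNA polymerase II and III, their general factors and the Mediator complex were examined in bovine oocytes before and after maturation *in vitro*. The members were the probe sets whose single annotated gene symbol named a polymerase II or III subunit, a TFII or TFIII factor, TBP or a TBP-associated factor, a Mediator subunit, or a SNAPc, SUPT, TCEA, ELL or BRF protein. The rule found 112 probe sets of 83 genes, among 24016 probe sets tested and 9155 genes with a symbol. The samples were 5 pools of immature oocytes and 5 pools of IVM oocytes, each on its own Affymetrix GeneChip Bovine Genome Array. Oocytes of both groups were aspirated from follicles of 3 to 8 mm on abattoir ovaries, so that a pool mixed animals, whose breed and age are not given in the sources used here. Immature oocytes were stripped of cumulus cells at once (0 h), and IVM oocytes after 24 h inside their cumulus in TCM-199 with 10% fetal calf serum and 10 ng/ml EGF, at 39°C in 5% CO2. From each pool 100 ng of RNA was amplified in 2 rounds. Pools are days of oocyte collection, and the sources do not say that the animals of 2 pools differed, so that p-values measure the spread between pools. The methods divide the collected oocytes into a part stripped at once and a part matured, so that pools may pair by day. The main fit does not use this pairing, and with a block for it no member passed over all probe sets. The number of arrays limits the precision of each comparison.

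RNA polymerase II transcribes messenger RNA genes, and RNA polymerase III transcribes transfer RNA, 5S ribosomal RNA and other small RNA genes. Polymerase II is placed at promoters by the general factors TFIIA, TFIIB, TFIID, TFIIE, TFIIF and TFIIH, and Mediator relays signals from activators to it. Transcription falls off in fully grown mammalian oocytes, and the oocyte and early embryo then live largely on stored RNA until the embryonic genome is switched on. The values here are array signals of the transcripts that encode this machinery, not levels of its proteins or of its activity. The authors raise preferential amplification by poly(A) tail length as a possibility in their PCR work. How far tail length sets the array values here was not tested.

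Transcripts of some subunits of RNA polymerase II, RNA polymerase III, TFIIF, TFIIH and Mediator were lower in IVM oocytes, while other subunits of these complexes did not pass the test. *POLR3C*, a subunit of polymerase III, fell by 5.30 on the log2 scale, a fitted difference of 39.5-fold, and *GTF2F1*, the large subunit of TFIIF, fell by 4.95. Both ended, at 6.59 and 7.39, within the range of probe sets with no varying signal. Of the 83 genes, 14 fell, none rose and 69 did not pass. The threshold was an adjusted p under 0.0001 from limma over the 24016 probe sets, with each gene counted by its probe set of highest mean. The 14 are 16.9% of the members, where 8.83% of the 9155 named genes fell, and 1.33% of them rose. By probe set, 17 of the 112 fell and none rose, against 4.81% and 0.974% of all probe sets. At the looser adjusted p of 0.05, 30 members were lower (36.1%, against 21.2% of named genes) and 7 higher (8.43%, against 16.7%). Every IVM array lay below every immature array for 28 of the 61 members whose values varied (45.9%, against 35.4% of varying named genes) and above for 6 (9.84%, against 23.9%). The median log2 difference over the 83 members was 0.00, as it was over all named genes. That median was set by 22 members (26.5%) whose lowest and highest values lay within 0.01 of each other, here called flat, as did those of 44.1% of named genes. None of the 14 was flat, so the shares of calls here and below also depend on how many genes were flat. Among varying genes, 47 of 61 members and 4199 of 5121 named genes did not pass. FARMS, the summary method used, returns a nearly constant value where the probes of a probe set share no signal, so such a value is not a measure of absence. In pools of whole oocytes, fewer cells with a transcript, less transcript per cell and a shorter poly(A) tail cannot be told apart. With equal RNA input and quantile normalization, each value is also relative to the rest of its array.

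**Figure D1:**
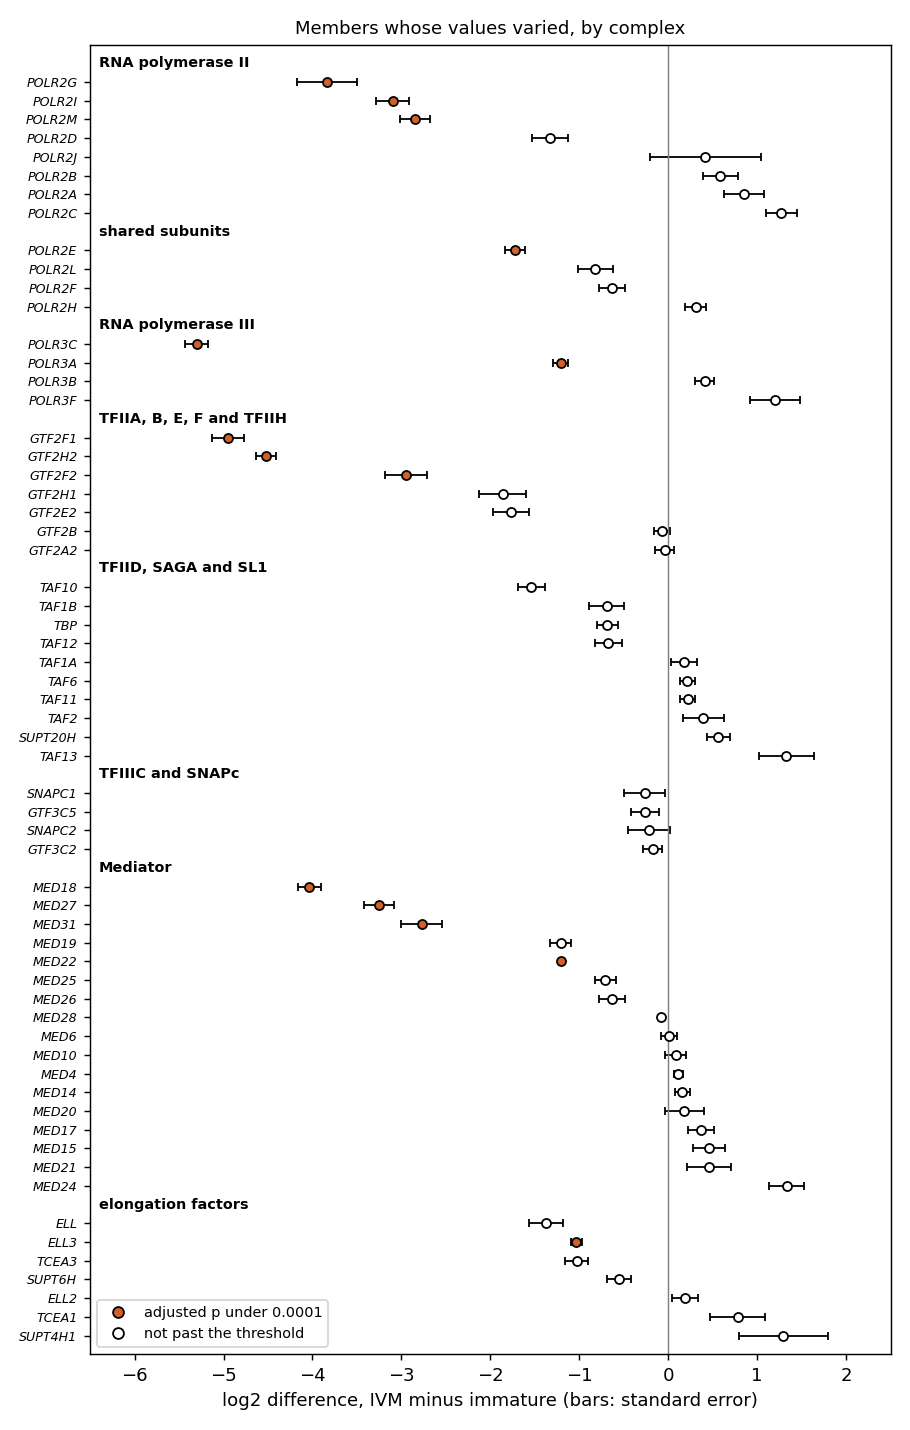
Log2 difference (IVM minus immature, with its standard error) of each of the 61 member genes whose values varied, grouped by complex and ordered by size, with filled points past an adjusted p under 0.0001. The 14 filled points all lie to the left of 0, between -5.30 and -1.03, and the open points to the right reach 1.33. Most of the points to the right (20 of 25) lie to the left of 0 when arrays are centred on the poly-A controls.

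The arrays differed in ways that run along with these results. Probe sets of the poly-A controls (24), meant for transcripts added to the RNA before amplification, averaged 7.12 ± 0.17 (log2 value, SD, n = 5) on the immature arrays and 8.17 ± 0.22 on the IVM arrays. They were higher by 1.05 with p = 0.00794 in a two-sided exact permutation test, which can give no smaller value for 5 against 5 arrays. The methods do not mention adding such transcripts. Flat probe sets ran from 6.14 to 8.01 (5th to 95th percentile), so the immature mean lay inside that range and the IVM mean just above it. Hybridization controls lay between 9.38 and 9.73 on immature replicates 1 to 3 and between 10.75 and 11.22 on the other 7 arrays. Marker transcripts were read on the same arrays. All 7 oocyte markers on the array varied. *ZP3* (-3.78) and *NLRP5* (-4.04) fell, *ZP4* (-3.15) and *GDF9* (-4.42) were lower on all IVM arrays without passing, and *KPNA7* (0.37) and *BMP15* (0.19) had positive differences. For the 7 the log2 of their summed level ran from 15.94 to 16.41 in immature and from 14.36 to 15.06 in IVM oocytes. For 6 markers of expanded cumulus, of which *AREG* was flat and *TNFAIP6* rose by 10.86, this level ran from 10.14 to 11.72 and from 13.19 to 17.51. It ran from 10.15 to 14.73 and from 10.85 to 14.17 for 8 granulosa markers, with *FOXL2* flat, and from 10.24 to 14.21 and from 10.83 to 13.71 for 8 other somatic markers, with *COL1A1* and *COL1A2* flat. In the last list *LUM* (4.37), *SPARC* (3.28), *DCN* (1.79) and, by 0.01, *COL3A1* were higher on all IVM arrays without passing, and *VIM* (-2.51) had the highest level in immature oocytes and overlapped. Both blood cell markers were flat. The part of these shifts in the differences of the members was not tested. With arrays centred on the poly-A controls, which moved the median of all probe sets by -1.05, the 14 genes still fell and 63 of the 83 members (75.9%) passed as lower, against 73.2% of named genes and 78.9% of probe sets, with 0.863% and 0.650% higher. Centring moved the difference of every probe set by the same amount, so that flat probe sets took a negative difference by construction. All 22 flat members were among the 63, and the likeness of these shares says little about the members. Of the 25 varying members with a positive difference, 20 turned negative.

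Within RNA polymerase II, 2 of 7 subunits (28.6%, against 8.83% of named genes), *POLR2G* and *POLR2I*, fell and the other 5 did not pass. *POLR2G*, which forms the stalk of the enzyme with *POLR2D*, read 11.67, 11.53, 11.60, 11.57 and 11.65 on immature arrays 1 to 5. It read 6.92, 8.27, 8.08, 8.55 and 7.02 on IVM arrays 1 to 5. The immature arrays were tightly grouped, and the IVM arrays lay far below them and spread over more than 1 log2 unit, with replicates 1 and 5 lowest. *POLR2G* fell by 3.84 (standard error 0.33, adjusted p = 5.54e-05 from limma). Its stalk partner *POLR2D* was at 10.19 ± 0.05 (SD, n = 5) and 8.86 ± 0.45, with no overlap of the arrays and adjusted p = 0.00130. *POLR2I*, a small subunit that takes part in the fidelity of transcription, fell by 3.10 (standard error 0.19, adjusted p = 6.75e-06). Its immature arrays read 10.67, 10.31, 10.61, 10.09 and 10.19, and its IVM arrays 6.71, 7.39, 7.58, 7.45 and 7.24. *POLR2M*, a protein bound to polymerase II rather than a core subunit, fell by 2.85, from 9.32 ± 0.13 to 6.48 ± 0.36 (standard error 0.17, adjusted p = 6.22e-06).

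The catalytic subunits and their assembly partner gave the opposite sign. *POLR2A*, the largest subunit, whose tail is phosphorylated during transcription, read 9.48, 9.07, 9.03, 8.95 and 8.88 in immature oocytes. In IVM oocytes it read 10.13, 9.58, 10.25, 9.34 and 10.37, so that a single IVM array, replicate 4, lay below the highest immature array. The difference was 0.85 (standard error 0.22, adjusted p = 0.0212), and another probe set of the gene was flat. *POLR2B*, the other catalytic subunit, was at 10.67 ± 0.10 (SD, n = 5) and 11.25 ± 0.44, with IVM replicate 4 highest at 12.01, no overlap and adjusted p = 0.0607. *POLR2C*, which helps to nucleate assembly of the enzyme, read 9.50, 9.33, 9.14, 9.26 and 9.35 in immature and 10.64, 10.44, 10.49, 10.18 and 11.18 in IVM oocytes. All 5 IVM arrays were higher by a clear margin, with a difference of 1.27 (standard error 0.18, adjusted p = 7.88e-04). The gene passed as higher over the most variable probe sets alone (adjusted p = 6.86e-05 from limma). These are as many as the methods kept as informative, but chosen by variance, which itself uses the difference between groups. With a block for the replicate number over them *POLR2C* did not pass (adjusted p = 2.88e-04). When arrays were centred on the poly-A controls, *POLR2A* and *POLR2B* had differences of -0.20 and -0.46 and *POLR2C* stayed above 0. *POLR2J*, which pairs with *POLR2C*, read 9.14, 9.04, 9.04, 7.79 and 8.50 in immature and 10.02, 8.00, 9.30, 7.64 and 10.65 in IVM oocytes. Its IVM values had the widest spread of any member (SD 1.29), and the groups overlapped (adjusted p = 0.724).

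**Figure D2:**
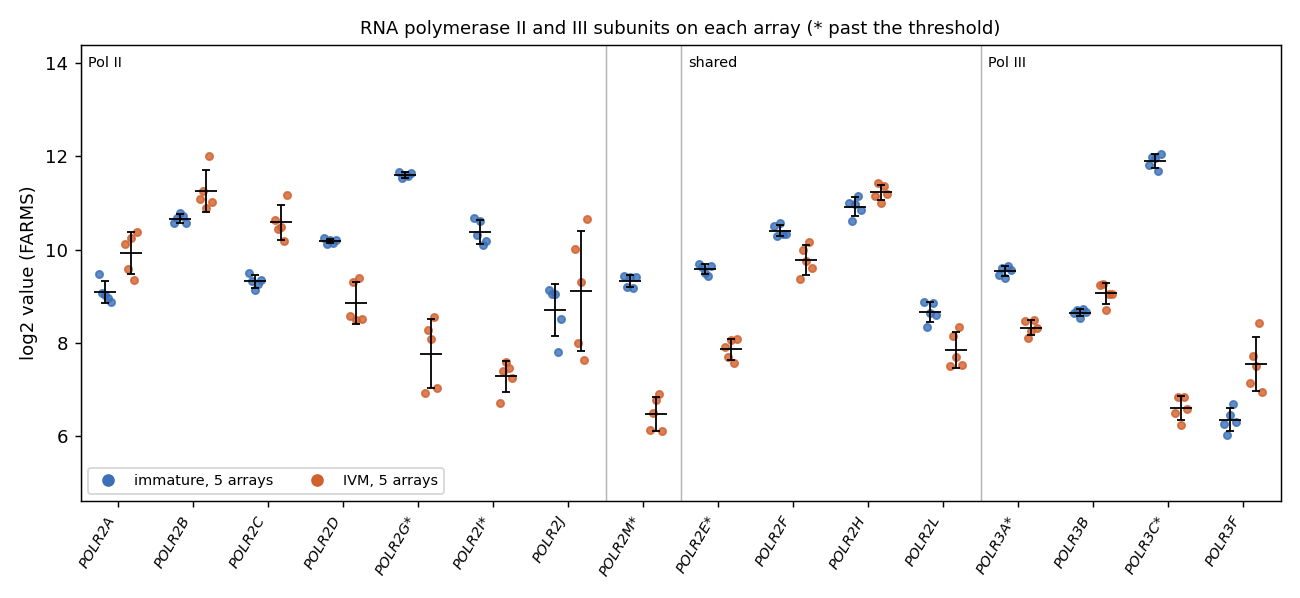
Log2 value on each array of the polymerase II and III subunits whose values varied, with blue points for the 5 immature and orange points for the 5 IVM arrays, and bars for mean and SD. The gene in the box between polymerase II and the shared subunits is *POLR2M*, and asterisks mark genes with an adjusted p under 0.0001. *POLR2G*, *POLR2I*, *POLR2M*, *POLR2E*, *POLR3A* and *POLR3C* lie lower on all IVM arrays, and *POLR2B*, *POLR2C* and *POLR3F* lie higher on all of them (*POLR2B* turns negative when arrays are centred on the poly-A controls).

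Subunits shared by the nuclear RNA polymerases differed in size of change. *POLR2E* fell by 1.72 (standard error 0.11, adjusted p = 9.23e-06), from 9.69, 9.63, 9.50, 9.43 and 9.64 on the immature arrays to 7.91, 7.70, 8.05, 7.56 and 8.08 on the IVM arrays. *POLR2F* was at 10.41 ± 0.12 (SD, n = 5) and 9.78 ± 0.31, and *POLR2L* at 8.66 ± 0.22 and 7.84 ± 0.39. Neither passed (adjusted p = 0.0124 and 0.0137). *POLR2H* was at 10.92 ± 0.20 and 11.23 ± 0.17, and the groups overlapped (adjusted p = 0.0819).

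RNA polymerase III held the member with the largest fall and also one of the larger positive differences. *POLR3C*, part of a subcomplex that takes the enzyme to its promoters, read 11.82, 11.98, 11.97, 11.68 and 12.05 on the immature arrays. On the IVM arrays it read 6.49, 6.84, 6.22, 6.83 and 6.58, more than 4 log2 units lower on every array. It fell by 5.30 (standard error 0.13, adjusted p = 6.80e-08), and another probe set of the gene fell by 3.61 (standard error 0.13, adjusted p = 4.74e-07). *POLR3F*, a partner of *POLR3C* in that subcomplex, read 6.27, 6.02, 6.44, 6.69 and 6.30 in immature and 7.14, 7.71, 7.51, 8.43 and 6.93 in IVM oocytes. Its IVM arrays were all higher, with a difference of 1.20 that did not pass (standard error 0.28, adjusted p = 0.0121), and its other 2 probe sets were flat. The *POLR3F* means of 6.34 and 7.54 both lay within the range of flat probe sets (6.14 to 8.01). *POLR3A*, the largest subunit, fell by 1.21 (standard error 0.08, adjusted p = 1.51e-05), from 9.53 ± 0.11 to 8.32 ± 0.16 (SD, n = 5). *POLR3B*, which completes the active site with *POLR3A*, was at 8.65 ± 0.08 and 9.06 ± 0.23, with overlap at IVM replicate 3 (8.69) and adjusted p = 0.0196. Centred on the poly-A controls, *POLR3B* had a difference of -0.64, while *POLR3F* stayed above 0. *POLR3D* and *POLR3K* were flat.

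Among the general factors of polymerase II, TFIIF and TFIIH held the falls, and the members of TFIIA and TFIIB had differences near 0. *GTF2F1* read 12.38, 12.67, 12.20, 12.09 and 12.34 in immature and 6.92, 7.32, 7.80, 7.62 and 7.28 in IVM oocytes. The gene fell by 4.95 (standard error 0.18, adjusted p = 4.14e-07), a fitted difference of 30.8-fold. *GTF2F2*, the small subunit of TFIIF, fell by 2.95 (standard error 0.24, adjusted p = 3.39e-05), from 10.83 ± 0.31 to 7.88 ± 0.43 (SD, n = 5), on the probe set of highest mean. Its other probe set, of nearly the same mean (9.29 against 9.35), had a difference of 0.89. *GTF2H2*, a core subunit of TFIIH, the factor that opens promoter DNA and also serves in DNA repair, read 11.93, 11.83, 11.86, 11.43 and 11.94 in immature oocytes. It read 7.40, 7.30, 7.32, 7.34 and 7.03 in IVM oocytes, and fell by 4.52 (standard error 0.11, adjusted p = 6.80e-08). *GTF2H1*, also of the TFIIH core, was at 9.69 ± 0.39 and 7.83 ± 0.45, with no overlap and adjusted p = 9.22e-04. *GTF2E2*, a subunit of TFIIE, which brings TFIIH to the promoter, had the highest immature level of the varying members, 13.27 ± 0.08, and was at 11.50 ± 0.45 in IVM oocytes (adjusted p = 2.71e-04). By contrast *GTF2B*, the single protein of TFIIB, was at 11.50 ± 0.12 and 11.43 ± 0.16 (adjusted p = 0.667), and *GTF2A2*, the small subunit of TFIIA, at 11.17 ± 0.17 and 11.13 ± 0.18 (adjusted p = 0.876). *GTF2E1* and *GTF2H4* were flat, as were the 3 genes of the GTF2I family, DNA-binding proteins that are general factors by name.

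None of the 9 genes of TFIID, which recognises the core promoter, passed the test, where a share of 8.83% as over all named genes would be less than 1 gene. *TBP*, its TATA-binding protein, which also serves polymerases I and III, read 10.79, 11.05, 10.72, 10.79 and 11.09 in immature and 10.37, 10.19, 10.16, 9.89 and 10.41 in IVM oocytes. The groups did not overlap, and the difference of -0.68 had adjusted p = 0.00280 (standard error 0.12). *TAF10*, a histone-fold subunit shared with the coactivator SAGA, was closest to the threshold, with 10.99 ± 0.12 against 9.45 ± 0.32 (SD, n = 5) and adjusted p = 1.16e-04. *TAF12*, likewise shared with SAGA, ran from 8.87 to 9.22 and from 7.93 to 8.67 (adjusted p = 0.00935). *TAF13* read 7.96, 7.64, 8.81, 8.17 and 7.85 in immature and 9.43, 9.61, 8.95, 10.20 and 8.88 in IVM oocytes, with every IVM array above every immature one by a small margin. Its difference was 1.33 (standard error 0.31, adjusted p = 0.0121), and its other 3 probe sets were flat. *TAF11*, the partner of *TAF13*, was at 7.52 ± 0.07 and 7.74 ± 0.17 with overlap, and *TAF2* and *TAF6* also overlapped. *TAF7* read 10.03 on every array and *TAF9B* was flat as well. Of SAGA, *SUPT20H* was at 10.80 ± 0.08 and 11.36 ± 0.28 (adjusted p = 0.0115), and *SUPT3H* and *TAF6L* were flat. Of the polymerase I selectivity factor, *TAF1A* overlapped between groups and *TAF1D* was flat.

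None of the 6 genes for factors of polymerase III or of small nuclear RNA genes passed the test. As 8.83% of all named genes fell, no call among so few genes does not set them apart. *GTF3C2* and *GTF3C5*, of the factor TFIIIC that binds inside transfer RNA genes, differed by -0.18 and -0.26 (adjusted p = 0.273 and 0.283). *SNAPC1* and *SNAPC2*, of the complex that recognises small nuclear RNA promoters, differed by -0.27 and -0.22 (adjusted p = 0.477 and 0.571). The groups overlapped for all 4, and *GTF3C1* and *SNAPC5* were flat.

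Mediator had falls in its head, middle and tail modules, and its scaffold subunits did not pass. *MED18*, of the movable jaw of the head, read 10.62, 10.50, 10.45, 10.07 and 10.55 in immature and 6.31, 6.69, 6.17, 6.34 and 6.51 in IVM oocytes. It fell by 4.03 (standard error 0.13, adjusted p = 2.28e-07), while *MED20*, the partner of *MED18* in the jaw, was at 8.74 ± 0.11 and 8.92 ± 0.48 (SD, n = 5) with overlap (adjusted p = 0.622). *MED22*, also of the head, fell by 1.20 with the smallest standard error of the 14 (0.03, adjusted p = 7.15e-08), from 8.22, 8.08, 8.08, 8.09 and 8.10 to 6.96, 6.92, 6.91, 6.89 and 6.88.

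In the middle module *MED31* fell by 2.77 (standard error 0.23, adjusted p = 4.14e-05). Its immature arrays read 9.91, 9.63, 9.41, 9.30 and 9.79, and its IVM arrays 6.49, 7.33, 6.57, 7.32 and 6.47, with IVM replicates 2 and 4 apart from the other 3. *MED19* just missed the threshold, with 8.77 ± 0.13 and 7.56 ± 0.23 (adjusted p = 1.06e-04), and *MED26*, a subunit that contacts elongation factors, was at 8.92 ± 0.16 and 8.28 ± 0.29 (adjusted p = 0.0125). *MED4*, *MED10* and *MED21* had differences of 0.11, 0.08 and 0.46 with overlap. In the tail, where activators bind, *MED27* fell by 3.25 (standard error 0.17, adjusted p = 2.90e-06), from 11.78, 11.42, 11.41, 11.55 and 11.49 to 8.23, 8.10, 8.43, 7.85 and 8.77. *MED24*, also of the tail, read 8.79, 8.50, 8.27, 8.32 and 8.53 in immature and 10.06, 9.33, 9.91, 9.50 and 10.28 in IVM oocytes. All IVM arrays were higher, with a difference of 1.33 (standard error 0.20, adjusted p = 0.00115) that stayed above 0 when arrays were centred on the poly-A controls. It passed over the most variable probe sets (adjusted p = 9.70e-05 from limma), a choice that uses the difference between groups. With the replicate block over them *MED24* did not pass (adjusted p = 2.78e-04). *MED25*, which binds activators, was at 8.33 ± 0.14 and 7.62 ± 0.22 (adjusted p = 0.00201). *MED14*, the backbone that joins the modules, was at 10.36 ± 0.14 and 10.52 ± 0.11 (adjusted p = 0.194), and *MED17*, the scaffold of the head, at 8.52 ± 0.14 and 8.89 ± 0.29 (adjusted p = 0.0897). *MED6* and *MED15* overlapped too, *MED28* differed by -0.09, and *MED9*, *MED11*, *MED12*, *MED23*, *MED29* and *MED30* were flat. In all, 4 of 23 Mediator genes (17.4%) fell and none rose, against 8.83% and 1.33% of named genes.

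**Figure D3:**
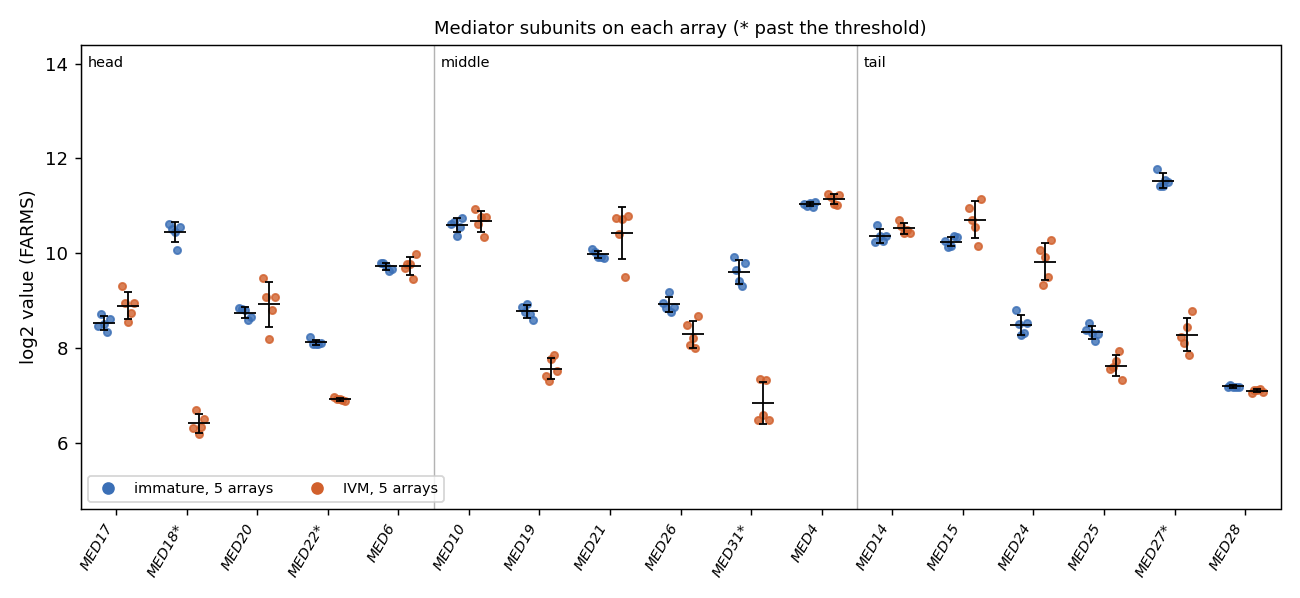
Log2 value on each array of the Mediator subunits whose values varied, by module, with blue points for the 5 immature and orange points for the 5 IVM arrays, and bars for mean and SD. Asterisks mark genes with an adjusted p under 0.0001. *MED18*, *MED22*, *MED27* and *MED31* lie lower on all IVM arrays, and *MED24* lies higher on all of them.

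Of the 9 elongation factors 1 fell (11.1%), a share near the 8.83% of all named genes. *ELL3*, of the ELL family that keeps polymerase II from pausing, read 7.86, 7.79, 7.83, 7.81 and 7.81 in immature and 6.83, 6.76, 6.59, 6.77 and 6.98 in IVM oocytes. It fell by 1.03 (standard error 0.06, adjusted p = 6.75e-06), the smallest change of the 14. Its relative *ELL* had a larger difference, -1.37 (standard error 0.19), with 9.38 ± 0.31 and 8.01 ± 0.30 (SD, n = 5) and adjusted p = 8.37e-04, and *ELL2* was at 8.18 ± 0.27 and 8.37 ± 0.19 (adjusted p = 0.419). The TFIIS genes, whose proteins restart stalled polymerase, gave opposite signs. *TCEA1* was at 10.08 ± 0.38 and 10.86 ± 0.58 with overlap (adjusted p = 0.0974, and a difference of -0.27 with arrays centred on the poly-A controls). *TCEA3* was at 7.56 ± 0.26 and 6.53 ± 0.14 with no overlap (adjusted p = 4.95e-04), and *TCEA2* was flat. *SUPT4H1*, a subunit of the pausing and elongation factor DSIF, read 7.46, 6.08, 7.70, 8.00 and 7.29 in immature and 8.08, 8.86, 8.31, 9.96 and 7.79 in IVM oocytes. Immature replicate 2 was the lowest and IVM replicate 4 the highest array, IVM replicate 5 lay below the highest immature array, and the difference of 1.29 did not pass (standard error 0.50, adjusted p = 0.0926). Its partner *SUPT5H* was flat at 8.37. *SUPT6H*, a histone chaperone that travels with polymerase II, was at 7.92 ± 0.09 and 7.37 ± 0.29 (adjusted p = 0.0145).

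Probe sets of one gene did not always give one answer. Of 22 members with several probe sets, 8 had more than 1 that varied, and 4 of these 8 differed in call or in sign. *GTF2F2* was the case of opposite signs. The probe set that stands for it fell by 2.95, whereas the other read 8.43, 9.24, 8.37, 8.80 and 9.41 in immature and 9.78, 9.89, 9.38, 9.46 and 10.17 in IVM oocytes, a difference of 0.89 with adjusted p = 0.0290. Their means were nearly equal, 9.35 and 9.29, so the call of the gene rests on a narrow choice between them. The groups overlapped on the other probe set only through IVM replicate 3 and immature replicate 5. *GTF2F1* had a difference of -0.01 on its dimmer probe set, which lay at 7.33 in immature oocytes. *POLR2D* did not pass on its brighter probe set and fell by 1.87 on the other (standard error 0.16, adjusted p = 4.61e-05). *TAF1B*, of the polymerase I selectivity factor, had a difference of -0.69 on its brightest probe set (adjusted p = 0.0283), fell by 1.33 on another (adjusted p = 8.16e-05) and had a difference of -0.14 on the dimmest (adjusted p = 0.114). For *POLR3C* both probe sets fell, and for *ELL*, *MED4* and *MED15* the signs were alike and no probe set passed. With the most variable probe set standing for each gene, 16 members fell in place of 14.

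**Figure D4:**
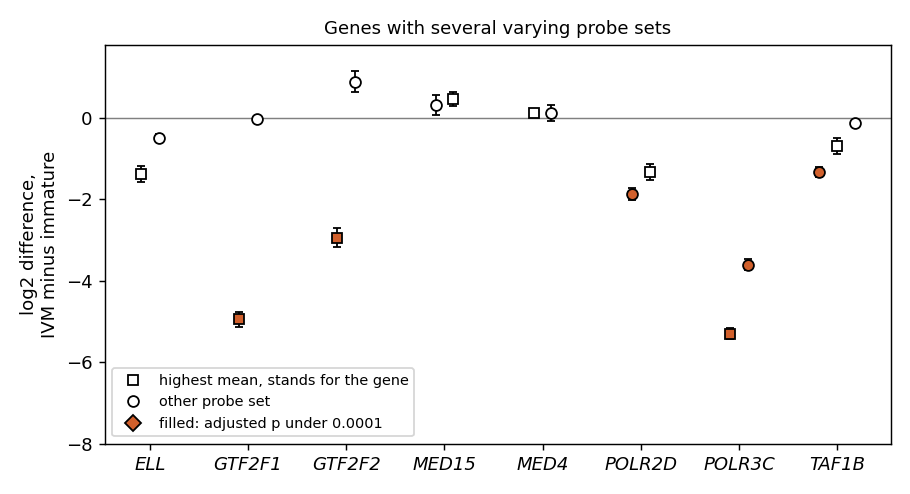
Log2 difference (IVM minus immature, with its standard error) of each varying probe set of the 8 members that have more than 1. Squares stand for the gene in the counts, circles are its other probe sets, and filled symbols have an adjusted p under 0.0001. The probe sets of *GTF2F2* lie on both sides of 0.

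The members that fell ended near the level of probe sets that carry no varying signal. Across the 14, mean log2 values ran from 7.82 to 12.34 (median 10.41) in immature oocytes and from 6.40 to 8.32 (median 7.28) in IVM oocytes. The 14556 flat probe sets had a median of 6.74 and a 95th percentile of 8.01, and 12 of the 14 IVM means lay at or below that percentile, compared with 1 of the 14 immature means. The remaining IVM means were those of *POLR3A* and *MED27*, at 8.32 and 8.28. How far a floor of the summary method sets the size of these falls was not tested. The 47 varying members that did not pass had IVM means from 6.53 to 11.50 (median 9.42). A call of lower itself favours a low IVM mean, so this contrast is partly set by the call. The share of IVM means in the flat range is not given here for all named genes that fell.

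**Figure D5:**
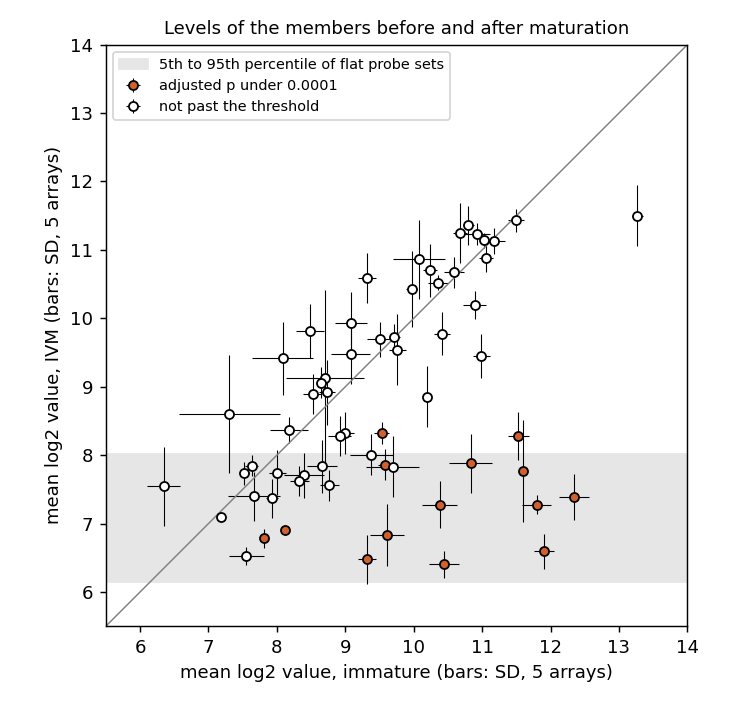
Mean log2 value in IVM against immature oocytes, with the SD over 5 arrays on each axis, for the 61 members whose values varied. The diagonal marks equal levels and the grey band the 5th to 95th percentile of flat probe sets (6.14 to 8.01). Of the 14 filled points, past an adjusted p under 0.0001, 12 lie in the band.

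Members repeated more closely between pools of immature than between pools of IVM oocytes. The median SD over the 61 varying members was 0.14 on the immature arrays and 0.31 on the IVM arrays, and 52 of the 61 (85.2%) had the larger SD in IVM oocytes, as did 78.0% of 5121 varying named genes. IVM replicate 4 was the highest or the lowest of the IVM arrays for 45 of the 61 members (73.8%, against 76.5% of varying named genes). It was the highest for *POLR2B*, *TAF13* and *SUPT4H1* and the lowest for *POLR2A*, *POLR2C* and *POLR2J*. Without it, the same 14 genes fell.

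Other proteins of the same machinery, outside the rule, were taken from a list of 59 genes, of which 47 were on the array and 32 varied. Of the 47, 11 fell (23.4%, against 8.83% of named genes) and 1 rose, where 1.33% of named genes did. *CCNH* (-3.51, adjusted p = 6.47e-06) and *MNAT1* (-3.04, adjusted p = 5.34e-06), which form the kinase of TFIIH with *CDK7*, both fell, and *CDK7* was at 11.48 ± 0.15 and 10.73 ± 0.31 (SD, n = 5, adjusted p = 0.00665). The PAF1 complex, which accompanies elongating polymerase II, had falls of *LEO1* (-3.97), *PAF1* (-2.54) and *SKIC8* (-1.68), a difference of 0.71 for *CDC73* that did not pass, and flat values for *CTR9* and *RTF1*. *NELFA* (-2.84) and *NELFB* (-1.13), of the pausing factor NELF, fell. *RPAP1* (-2.91) and *GPN3* (-1.98), which help to assemble or import polymerase II, fell, and so did *POLR1D* (-2.91), a subunit shared by polymerases I and III, and the elongation factor *IWS1* (-1.97). Positive differences were seen in 17 of the 32, where 2569 of 5121 varying named genes had one. At an adjusted p under 0.05, 11 genes were higher (23.4%, against 16.7% of named genes). Every IVM array lay above every immature array for 21.9% of the varying genes of the list, against 23.9% of varying named genes. Among those that did not pass the threshold, *AFF1*, of the super elongation complex (1.34), *DRAP1*, a repressor that binds TBP (1.40), *SSU72*, a phosphatase of the polymerase II tail (1.34), *CRCP*, a polymerase III subunit (1.30), *SSRP1*, of the histone chaperone FACT (1.15), and *MED13L*, of the Mediator kinase module (1.12), were higher on all IVM arrays. *HEXIM1*, an inhibitor of the kinase that releases paused polymerase, had the largest positive difference (1.79, with overlap). *SSB*, the La protein that binds the ends of new polymerase III transcripts, rose by 0.89 (standard error 0.06, adjusted p = 1.44e-05 from limma). This call ended without IVM replicate 2, and with the replicate block over all or over the most variable probe sets. It also ended with immature replicates 4 and 5 alone, and when arrays were centred on the poly-A controls, which turned the difference negative.

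The calls depended on the arrays used and on the fit. With a block for the replicate number, none of the 83 members was called by limma over all probe sets (smallest adjusted p = 2.40e-04) and no probe set at all (0.00% of 24016), while the log2 differences of the members stayed the same. At an unadjusted p under 0.05 in that fit, 32 of the 83 members were lower and 13 higher, where 26.4% and 22.5% of named genes were. Over the most variable probe sets without the block, a choice that itself uses the difference between groups, 20 members fell and 2 rose, *MED24* and *POLR2C*. By probe set, 23 of the 68 member probe sets in this choice fell and 2 rose, against 18.7% and 8.11% of all probe sets in it. With the block over the same probe sets, 15 members fell and none rose, and 13 of the 14 genes were among the 15, without *ELL3*. By probe set, 17 of the 68 fell and 0 rose, against 13.0% and 3.34%. Immature replicates 4 and 5 alone, whose hybridization controls lay in the range of the IVM arrays, gave no call of a member by limma over all probe sets, of which 4 were lower (0.0167%) and none higher (0.00%). Of the 83 members, 27 lower and 7 higher ones had an unadjusted p under 0.05 from limma, against 22.5% and 15.2% of named genes. Over the most variable probe sets the same arrays gave 6 falls, of *POLR3C*, *GTF2F1*, *GTF2H2*, *MED18*, *MED27* and *POLR2I*, and no rise. By probe set, 7 of the 68 member probe sets fell and 0 rose, against 5.06% and 0.0763% of those probe sets. Leaving out single arrays left 10 to 14 falls. The call of *POLR2G* ended without any array other than IVM replicate 4, that of *GTF2F2* without any other than IVM replicates 4 and 5, and that of *MED31* without any other than IVM replicates 2 and 4. *POLR3A* lost its call without immature replicate 2, immature replicate 5 or IVM replicate 5. Over the most variable probe sets all 14 genes passed in each of these 10 fits.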

How the data were processed

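The deposited values are log2 expression levels, 1 per probe set and array. The authors quantified array images with GCOS and summarised probes by FARMS with quantile normalization, and versions are not given in the sources used here. All 10 value columns were used. Platform symbols were updated by gene identifier (13263 probe sets), by accession (2) or kept (27), 86 probe sets had several symbols, 10638 had none, and 112 controls were left out of the tests.

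Groups were compared with limma 3.58.1 in R 4.3.3 (lmFit, eBayes) on the log2 values, with Benjamini-Hochberg adjustment over 24016 probe sets and a threshold of 0.0001. The rate is that of the methods, whose SAM test was not run because it permutes samples. A gene was counted by its probe set of highest mean. Values spanning under 0.01 on the log2 scale were called flat. A gene without an overlap had every array of one group above every array of the other. Fold is 2 to the power of the log2 difference.

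The members, gene lists and rule for named genes were chosen with earlier results of these data known. The rule took all members past the threshold, the 10 largest differences among varying members not past it, the defining subunits (among them *POLR2A*, *POLR2B*, *POLR3A*, *POLR3B*, *TBP*, *GTF2B*, *MED14*, *SUPT5H* and *TCEA1*), members whose varying probe sets differed in call or sign, and up to 8 other genes of the machinery. Further members are named to account for each complex, after their values were seen, as were *IWS1*, *SKIC8*, *NELFB*, *SSB*, the higher genes of the machinery and the genes that stand beside a named partner. *POLR2M* was set apart from the core subunits after the symbols were seen.

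Equal replicate numbers were read as 1 collection day, as the methods equate replicates with days. Correlations of the deviations of same-numbered arrays from their group means were 0.15, -0.34, 0.08, 0.68 and 0.35 for replicates 1 to 5, so that the data do not show the pairing for every number. The alternatives were other sets of probe sets, the replicate block, another variance model, centring, threshold or probe set rule, and fewer arrays. The fits of fewer arrays over the most variable probe sets were added after the data were seen. In simulated data for this comparison, only probe sets above a small SD were changed. Over 24016 probe sets, 31 of 100 changed by 2 on the log2 scale and 6 of 100 changed by 1 were called. Over the most variable ones 62 and 10 were called, and none was called falsely in either. The noise was normal and independent, with 1 SD per probe set for both groups and no shift between arrays. False calls through the unequal spread or the control shifts of the real arrays could therefore not appear. No sequence is printed.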

Additional observations from a re-analysis of the deposited data

Results flagged for a closer look

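Of 68 groups of 5 arrays checked for a single array far from the other 4, 3 had one, where chance gives about 1 in 20 groups. *GTF2H2* read 11.43 on immature replicate 4, and 11.83 to 11.94 on the other immature arrays. On IVM replicate 5 the same gene read 7.03, and 7.30 to 7.40 on the other IVM arrays. *MED22* read 8.22 on immature replicate 1, and 8.08 to 8.10 on the other immature arrays. Both genes passed the threshold without any single array.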

How the results depend on the processing

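The main counts were 14 member genes lower and 0 higher, 17 member probe sets lower and 0 higher, and 11 other genes of the machinery lower and 1 higher. With the replicate block over all probe sets, each of these counts was 0, as over all probe sets tested, and over the most variable probe sets with the block the other genes had 0 higher. With immature replicates 4 and 5 only, all were 0 over all probe sets, and over the most variable ones there were 6 member genes, 7 member probe sets and 6 other genes lower and 0 higher. Centring on the poly-A controls, which moved the median of all probe sets by -1.05, gave 63 member genes, 89 member probe sets and 32 other genes lower and 0 higher, where 78.9% of all probe sets were lower. All flat member genes were among the 63, because centring gave each flat probe set the same shift. Centring also turned the differences of *MED14* (-0.89), *POLR2A* (-0.20), *POLR2B* (-0.46), *POLR3B* (-0.64) and *TCEA1* (-0.27). At an adjusted p under 0.05, 30 member genes were lower and 7 higher, 34 member probe sets were lower and 8 higher, and 11 other genes were higher. Over the most variable probe sets 2 member genes and 2 member probe sets were higher and 4 other genes were higher, and over varying probe sets alone 1, 1 and 4. Without single arrays, 10 to 14 member genes, 11 to 15 member probe sets and 10 to 11 other genes were lower, and 0, 0 and 0 to 2 higher. Over the most variable probe sets without single arrays, 17 to 19 member genes were lower and 0 to 2 member genes and member probe sets higher. The cause of these shifts was not tested. The other alternatives, trend and robust settings, median centring and the most variable probe set, left the counts of lower genes within 1.5 times the main count.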
